A study of Mus musculus with 32 samples.

Results

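The Notch receptors and their ligands were followed in mouse embryos with and without *Commd10*. The 9 genes are the receptors *Notch1*, *Notch2*, *Notch3* and *Notch4*, the Delta ligands *Dll1*, *Dll3* and *Dll4*, and the Jagged ligands *Jag1* and *Jag2*. They were chosen by name, through the Ensembl identifier of each, and all 9 were found among the 55414 identifiers of the count table. Libraries followed the QuantSeq 3′ FWD protocol, which reads a short tag near the poly(A) end of a transcript, from whole embryos whose yolk sac had been taken off. There were 3 stages, named by the embryonic day. E8.5 had 10 WT and 3 Commd10Null libraries, E9.5 had 9 WT and 3 Commd10Null libraries, and E10.5 had 4 WT and 3 Commd10Null libraries. All embryos came from intercrosses of heterozygous B6.Cg-Commd10Tg(Vav1-icre)A2Kio/J mice. Commd10Null embryos carry the Vav1-iCre transgene on both alleles, inserted in an intron of *Commd10*, and WT embryos carry none. The *Vav1* promoter of the transgene is active in blood cells, and no floxed allele is named for these mice. The paper names at least 3 biological repeats for each condition. The sources used here do not give whether a library holds a single embryo, nor its litter. In groups of more than 3 libraries the spread, and the p-values that use it, may thus be partly technical. Every p-value here treats the libraries as independent. 

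Notch signaling passes between cells that touch. A ligand on the surface of a cell binds a receptor on its neighbour, and the ligand's endocytosis in the sending cell exposes the receptor to cleavage, first by an ADAM protease and then by gamma-secretase. The freed intracellular domain joins RBPJ and Mastermind in the nucleus and turns on genes of the *Hes* and *Hey* families. DLL1, DLL4, JAG1 and JAG2 activate receptors on neighbouring cells, whereas DLL3 stays mostly inside the cell and dampens signaling there. In the mouse embryo *Dll1* and *Dll3* mark the presomitic mesoderm, which segments into somites, and newborn neurons. *Dll4* and *Notch4* are genes of the endothelium, *Notch3* is known from the mural cells that coat vessels, and *Jag1* is used in smooth muscle, heart and neural tissue.

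The sequences shown here lie just upstream of the RefSeq start sites of *Dll1*, *Dll3* and *Jag1*, the members with the largest changes in Commd10Null embryos at E10.5. All are from GRCm38.p6, and the capitals mark the letters CAGCTG, an E-box, which read the same on both strands. For *Dll1*, the 250 bases before the more upstream of its RefSeq start sites (chr17:15376933-15377182, minus strand, with no base in an annotated exon of *Dll1*) read as follows.
Dll1: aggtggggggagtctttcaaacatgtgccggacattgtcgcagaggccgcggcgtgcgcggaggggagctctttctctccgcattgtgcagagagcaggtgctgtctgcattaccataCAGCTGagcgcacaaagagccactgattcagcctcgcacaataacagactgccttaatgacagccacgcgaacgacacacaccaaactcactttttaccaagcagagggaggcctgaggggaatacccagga
A window of 30 bases around the same letters is given for *Dll3* (chr7:28301786-28301815, minus strand) and *Jag1* (chr2:137116585-137116614, minus strand).
Dll3: aaatataagactccggcatccagCAGCTGc
Jag1: ccgcgtttcatgCAGCTGatctgaaaggga
The 30 bases of *Dll3* and the 30 bases of *Jag1* lie within exons annotated for other transcripts. Of the 250 bases before the start of *Jag1*, 124 lie in such exons. The first base of the E-box lay 132 bases before the start of *Dll1*, 7 before that of *Dll3* and 82 before that of *Jag1*, and CAGCTG was not found in the 250 bases before the other start site of *Dll1* or the starts of the other members. The same letters stood in the 250 bases before 13% of the 32851 promoters in the table. They were chosen after the sequences had been read, so the count of members that hold them carries no weight. The letters of an RBPJ site, GTGGGAA, which contain its core TGGGAA, were searched on both strands. They stood in 5.42% of all promoters, the core in 21.6%, and neither in the windows of the 9 genes. A match of letters is a description of sequence and does not show binding.

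In the GENCODE M21 annotation of GRCm38, *Dll1* (ENSMUSG00000014773) spans chr17:15367354-15376872, *Dll3* (ENSMUSG00000003436) chr7:28293553-28302238 and *Jag1* (ENSMUSG00000027276) chr2:137081456-137116644, all on the minus strand. *Notch1* (ENSMUSG00000026923) and *Dll4* (ENSMUSG00000027314) also lie on chromosome 2, *Notch3* (ENSMUSG00000038146) and *Notch4* (ENSMUSG00000015468) on chromosome 17, *Notch2* (ENSMUSG00000027878) on chromosome 3 and *Jag2* (ENSMUSG00000002799) on chromosome 12. An annotated gene on the opposite strand overlaps *Notch1*, *Notch3*, *Notch4*, *Dll1* and *Dll4*. The strand setting of the counting is not given, so that tags of such a neighbour cannot be told apart from those of these 5 genes. On the same strand, *Mir6996* overlaps *Notch1*, *Gm42819* and *Gm42820* overlap *Notch2*, and *Mir6941* overlaps *Jag2*. Strand would not tell tags of these apart from those of the member. No annotated gene overlaps *Dll3* or *Jag1*, on either strand.

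A library held 7025188 to 9069005 counts (median 7971614.5), and the 9 genes together held 1014 to 2061 of them. Levels are given as CPM, the counts of a gene relative to a library size that TMM adjusts over all 32 libraries, and are not divided by gene length, since each transcript yields 1 tag. Tags of *Commd10* itself were at 36.2 to 55.7 CPM in the WT libraries and at 58.7 to 94 CPM in the Commd10Null libraries of the 3 stages, without overlap. The transgene lies in an intron and the tags come from the 3′ end of the transcript, so this level does not show loss of the protein and gives no check of the genotype labels. An identifier without a gene symbol took 2.98 to 8.83% of the counts in WT E9.5 and E10.5 libraries, and 15 to 22.8% in WT E8.5 and all Commd10Null libraries. Without TMM factors, the median log2 fold change of all genes moved by -0.195 at E9.5 and by -0.135 at E10.5 for Commd10Null over WT, and by 0.123 for WT E9.5 over WT E8.5. The share of calls that were higher then went from 53.7 to 33.6% at E9.5 and from 49.4 to 35% at E10.5 for genotype, and from 49.3 to 65.9% and from 49.1 to 64.5% between the WT stages. Fold changes of the members are read relative to the TMM centre.

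The 9 genes fell into a more and a less abundant set, whose makeup differed between the genotypes at E10.5. In WT E9.5 embryos *Notch2* was at 39.6 ± 4.31 CPM (SD, n = 9), *Jag1* at 35.5 ± 3.23, *Notch1* at 31.4 ± 4.7, *Notch3* at 30.9 ± 3.26 and *Dll3* at 28.2 ± 5.03, and neighbours in this order overlapped in their libraries. *Dll1* followed at 12.4 ± 1.76 CPM (SD, n = 9), below every library of *Dll3* and above every library of *Jag2*. *Jag2* (6.61 ± 1.5 CPM), *Notch4* (6.28 ± 1.27) and *Dll4* (4.73 ± 1.09; SD, n = 9) overlapped at the bottom. WT embryos of E8.5 had the same genes in the 6 upper places, led by *Jag1* at 44.2 ± 10.6 CPM (SD, n = 10), with every neighbour overlapping. In Commd10Null embryos of E10.5 *Jag1* (60.4 ± 9.72 CPM) and *Notch2* (56.7 ± 7.27; SD, n = 3) led. *Notch3* (44.3 ± 4.81) lay below every library of *Notch2* but overlapped *Jag1*. *Notch1* (27.2 ± 2.26; SD, n = 3) lay below every library of *Notch3*, and *Dll3* (2.32 ± 1.55) and *Dll1* (2.15 ± 0.609) were last.

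**Figure D1:**
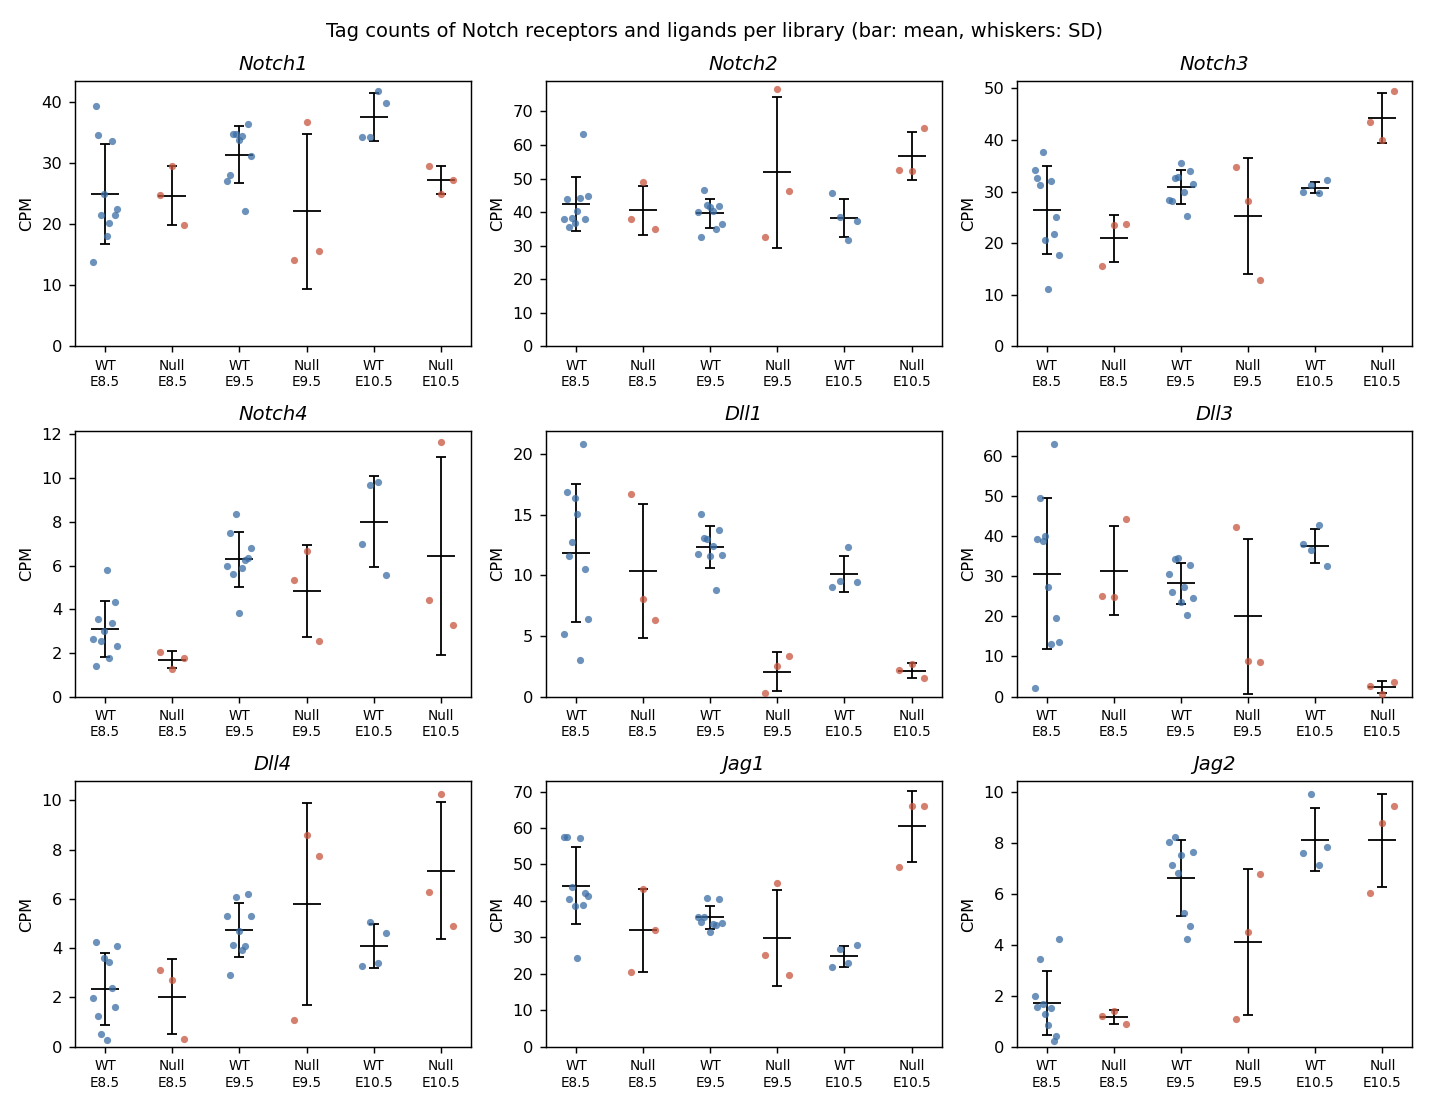
Level of each of the 9 genes (y axis, CPM scaled by TMM over all 32 libraries) in the 6 groups (x axis; Null is Commd10Null). Points are libraries, blue for WT and red for Commd10Null, the bar is the group mean and whiskers are the SD; *Dll1* is at 0.274 to 3.38 CPM in the 6 Commd10Null libraries of E9.5 and E10.5, and *Jag1* is at 49.2 to 66.1 CPM in those of E10.5.

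At E8.5 no receptor or ligand differed between Commd10Null and WT embryos beyond the spread of the libraries. None of the 9 passed edgeR's quasi-likelihood test (adjusted p not above 0.05), where 13.6% of the 13799 genes tested did. That share rests on single libraries: of all genes, 1876 passed, 390 without Commd10Null replicate 1 and 989 without replicate 3. For each of the 9 the groups overlapped, whereas for 9.8% of all genes they did not. None had an unadjusted p under 0.05 either, nor did any pass the Wald test of DESeq2. The log2 fold changes ran from -0.86 (SE 0.46, adjusted p = 0.214) for *Notch4* to 0.03 (SE 0.55, adjusted p = 0.983) for *Dll3*. *Jag1* was at 20.4, 43.2 and 32.1 CPM in the Commd10Null libraries and at 24.3 to 57.6 CPM (median 41.7) in the WT libraries, a log2 fold change of -0.48 with a 95% interval of -0.98 to 0.02 (adjusted p = 0.184). The intervals were wide for several ligands. That of *Dll4* ran from -1.71 to 1.28 and that of *Jag2* from -2.04 to 0.94 on the log2 scale, both ligands of low count. *Dll3*, an abundant ligand, also had a large SE (0.55). Changes within such intervals were not excluded with these libraries.

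WT embryos of E8.5 differed among themselves in *Dll3* more than in any other abundant member. *Dll3* ranged from 2.11 to 63 CPM (median 33) in the 10 libraries and *Dll1* from 3.04 to 20.9 CPM (median 12.2). WT replicate 1 had the lowest *Dll3*, with 16 counts, and replicate 8 the highest, with 525. Markers of the presomitic mesoderm, 10 genes that include *Tbx6*, *Msgn1* and *Hes7*, summed to 41.5 CPM in replicate 1, the lowest of the WT E8.5 libraries, and to 476 CPM in replicate 8, the highest. Heart muscle markers stood at the opposite extremes in the same libraries, 1778 CPM in replicate 1, the highest, and 36.1 CPM in replicate 8, the lowest, as did mural and smooth muscle markers (409 and 75.6 CPM). Neural progenitor markers summed to 382 CPM in replicate 1 and to 156 CPM, the lowest, in replicate 8. The part of these cell types in the spread of *Dll3* was not tested.

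Cell type markers differed between the genotypes at E8.5 as well. Erythroid markers, 5 of 6 tested higher, summed to 12 to 2160 CPM in Commd10Null and 11.8 to 449 CPM in WT libraries, and markers of maternal decidua and leukocytes, 2 of 3 tested higher, to 44.3 to 255 against 2.16 to 47 CPM. Markers of visceral and yolk sac endoderm, 1 of 8 higher, summed to 2325 to 3665 against 259 to 2485 CPM. Neural progenitor markers, 5 of 9 tested lower, summed to 120 to 159 against 156 to 385 CPM, and somite markers, 4 of 7 tested lower, to 54.2 to 152 against 157 to 281 CPM. Heart muscle markers, 1 of 8 lower with a median log2 fold change of -2.83, summed to 62.7 to 279 against 36.1 to 1778 CPM. Neuron markers, 3 of 6 tested lower, summed to 59 to 85.6 against 64.9 to 103.5 CPM. Presomitic, endothelial and mural markers had no call. The part of these cell types in the E8.5 values of the members and pathway genes was not tested.

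At E9.5 *Dll1* was lower in every Commd10Null library than in any WT library. It was at 0.274, 2.56 and 3.38 CPM in Commd10Null replicates 1, 2 and 3, from 2, 20 and 28 counts, and at 8.77 to 15.1 CPM (median 12.5) in the WT libraries. The level was 5.73-fold lower (log2 fold change -2.52, SE 0.40, adjusted p = 0.000199). *Dll1* was the only member of the 9 that passed, in a comparison in which 37.6% of the 13483 genes tested passed, 17.4% as lower, and in which 23% of genes had groups that did not overlap. In whole embryos, fewer cells that make *Dll1* and less *Dll1* RNA in each of them cannot be told apart.

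The other ligands and the receptors at E9.5 were uneven among the 3 Commd10Null libraries. *Dll3* was at 42.3 CPM in replicate 1, above every WT library (20.4 to 34.6 CPM), and at 8.96 and 8.69 CPM in replicates 2 and 3, below every WT library. The mean, 20 ± 19.3 CPM (SD, n = 3) against 28.2 ± 5.03 (SD, n = 9), therefore described none of the 3. *Dll3* did not pass (log2 fold change -0.47, SE 0.37, adjusted p = 0.344). Without Commd10Null replicate 1, *Dll3* fell by 1.65 on the log2 scale (adjusted p = 2.88e-05), *Notch2* (0.66, adjusted p = 0.0037) and *Dll4* (0.81, adjusted p = 0.0211) were higher and *Notch3* (-0.57, adjusted p = 0.0435) was lower, so that 5 members passed. *Notch1* was at 36.7 CPM in replicate 2, against 14.1 and 15.6 in the other two, and *Jag1* at 44.8 against 25 and 19.8. Without replicate 2, *Notch1* (-1.05, adjusted p = 0.00074) and *Jag1* (-0.63, adjusted p = 0.00403) passed beside *Dll1*, and without replicate 3 *Jag2* (-1.20, adjusted p = 0.0262) did.

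Markers of several cell types moved with genotype at E9.5. Neural progenitor markers, 10 genes, all 10 lower, summed to 86.1 to 171 CPM in Commd10Null and 516 to 697 CPM in WT libraries, with *Neurog2*, which drives neurogenesis, at 0 counts in Commd10Null embryos. Presomitic markers summed to 244, 197 and 90.4 CPM in Commd10Null replicates 1, 2 and 3 and to 68 to 112 CPM in WT embryos, with 2 of 9 tested higher and 2 lower, and with *Msgn1* and *Ripply2* at 0 counts in Commd10Null embryos. Somite markers, 7 of 8 lower, summed to 36.2 to 80.5 CPM against 178 to 291 CPM. Markers of visceral and yolk sac endoderm, 8 of 8 higher, summed to 149, 501 and 4094 CPM against 26 to 123 CPM, the last in replicate 3. Neuron markers, 6 of 8 lower, summed to 111, 65.8 and 32 CPM in Commd10Null replicates 1, 2 and 3 and to 103 to 274 CPM in WT libraries. Endothelial markers, 3 of 10 higher and 1 lower, summed to 241, 567.7 and 387 CPM against 213 to 275 CPM, and *Dll4* was at 1.09, 8.57 and 7.73 CPM in the same replicates. Heart muscle markers, 4 of 8 higher, summed to 2994, 2128 and 350 CPM against 1273 to 1802 CPM, and mural markers, 2 of 7 tested higher and 1 lower, to 887, 798 and 244 CPM against 314 to 458 CPM. Markers of maternal decidua and leukocytes, of which 1 was tested and was higher, summed to 5.2, 130 and 8.09 CPM against 0 to 2.24 CPM. The part of these cell types in the E9.5 values of the members and pathway genes was not tested.

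At E10.5 the Delta ligands *Dll1* and *Dll3* were lower and *Jag1* was higher in Commd10Null than in WT embryos, without overlap between the groups. *Dll3*, expressed in presomitic mesoderm and newborn neurons, was at 2.71, 0.619 and 3.65 CPM, from 22, 5 and 29 counts, in the Commd10Null libraries and at 38.1, 36.5, 42.9 and 32.4 CPM in the WT libraries. All 3 Commd10Null libraries lay far below the lowest WT library, and the level was 16-fold lower (log2 fold change -4.00, SE 0.30, adjusted p = 1.53e-07). *Dll1* was at 2.21, 2.72 and 1.51 CPM against 9.09, 9.58, 12.4 and 9.47 CPM and fell 4.66-fold (-2.22 on the log2 scale, SE 0.28, adjusted p = 2.02e-05). *Jag1* was at 49.2, 66.1 and 66 CPM against 22, 26.8, 22.9 and 27.8 CPM, and rose 2.44-fold (log2 fold change 1.29, SE 0.13, adjusted p = 3.57e-06). These 3 were also the members that changed by 1 or more on the log2 scale, and their calls held without any library in turn.

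The remaining ligands at E10.5 gave weaker or no differences. *Dll4*, the ligand of arterial endothelium, was at 6.27, 10.3 and 4.91 CPM in Commd10Null and at 3.28, 5.07, 3.39 and 4.61 CPM in WT libraries, which overlapped, and just passed (log2 fold change 0.81, SE 0.31, adjusted p = 0.0469). The call was lost without TMM factors (adjusted p = 0.0889), without the most abundant identifier (0.0503), with all 32 libraries in 1 model (0.339), and when any library other than Commd10Null replicate 3 was left out (0.052 to 0.263). *Jag2* was at 6.03, 8.79 and 9.44 CPM against 7.61, 9.92, 7.12 and 7.81 CPM, with a log2 fold change of 0.00 and a 95% interval of -0.49 to 0.49 (adjusted p = 0.997).

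Among the receptors at E10.5, *Notch1* fell while *Notch2* and *Notch3* rose, each by less than 2-fold and each without overlap between the groups. *Notch1* was at 29.5, 25 and 27.2 CPM in Commd10Null and at 34.2, 34.3, 41.8 and 39.9 CPM in WT libraries (log2 fold change -0.45, SE 0.13, adjusted p = 0.00926 from edgeR). *Notch2* was at 52.6, 52.3 and 65.1 CPM against 45.5, 38.5, 31.8 and 37.4 CPM (0.57, SE 0.13, adjusted p = 0.00265). *Notch3* was at 43.4, 40 and 49.5 CPM against 29.9, 31.2, 29.8 and 32.2 CPM (0.53, SE 0.11, adjusted p = 0.00168). With all 32 libraries in 1 model, the calls of *Notch1* (adjusted p = 0.234) and *Notch3* (adjusted p = 0.156) were lost. *Notch4*, an endothelial receptor, was at 4.43, 11.6 and 3.27 CPM against 6.97, 9.69, 9.81 and 5.56 CPM and did not pass (-0.30, SE 0.37, adjusted p = 0.542). Without Commd10Null replicate 2, its log2 fold change was -1.05 (adjusted p = 0.0181).

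In all, 7 of the 9 members passed at E10.5, 4 as higher and 3 as lower, and 6 of the 9 had groups that did not overlap. Of the 13522 genes tested, 42.3% passed, 20.9% as higher and 21.4% as lower, and 45.6% of genes had groups that did not overlap. A difference in either direction was thus common among all genes at this stage. The size of the change in *Dll1*, *Dll3* and *Jag1* was less common, since 15.3% of all genes passed with a change of 1 or more on the log2 scale.

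**Figure D2:**
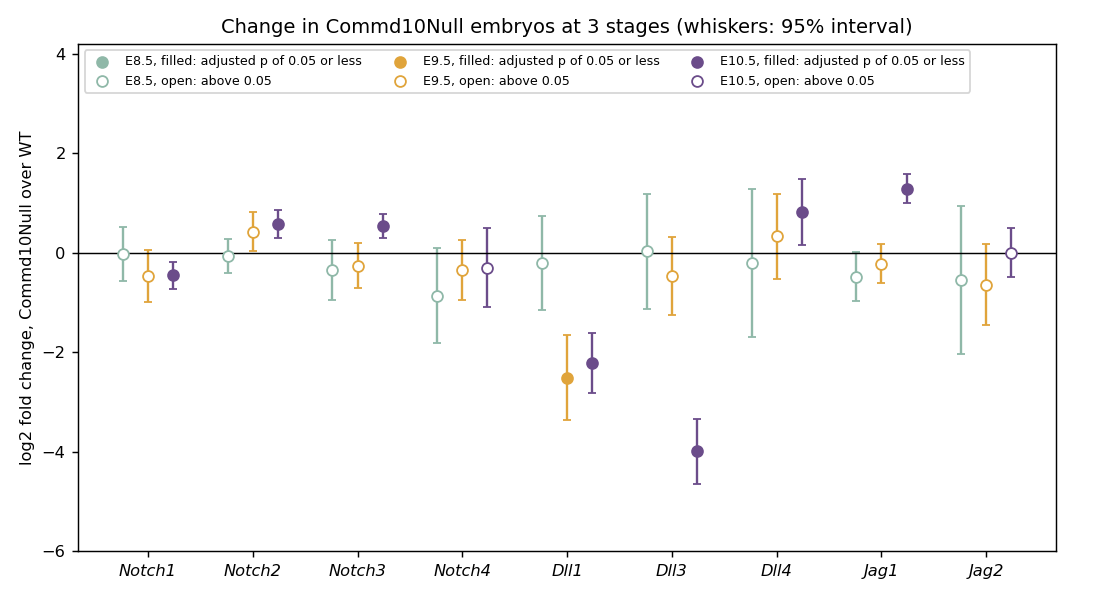
Log2 fold change of Commd10Null over WT (y axis) for each gene (x axis), with 95% intervals as whiskers. The stages stand side by side within each gene and are told apart by color. Filled points had an adjusted p of 0.05 or less in edgeR's quasi-likelihood test. All points of E8.5 are open, only *Dll1* is filled at E9.5 (-2.52), and *Dll3* at E10.5 (-4.00) is the lowest.

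Cell type markers also differed at E10.5. Neuron markers, 7 of 8 lower, summed to 75.9 to 78.8 CPM in Commd10Null and 502 to 852 CPM in WT libraries, with *Nhlh1*, a gene of newborn neurons, at 0 counts in Commd10Null embryos. Neural progenitor markers, 9 of 10 lower, summed to 232 to 304 against 528 to 775 CPM. Presomitic markers, of which 6 were tested, 2 higher and 2 lower, summed to 51.5 to 71.8 against 60.1 to 64.1 CPM, with *Msgn1* at 0 counts in both groups and *Ripply2* at 0 in Commd10Null embryos. Mural and smooth muscle markers, 5 of 7 tested higher, summed to 1043 to 1500 against 282 to 349 CPM, and heart muscle markers, 8 of 8 higher, to 4743 to 7168 against 1062 to 1623 CPM. Endothelial markers, 5 of 10 higher and 1 lower, summed to 371 to 428 against 216 to 243 CPM. Somite markers, 7 of 8 lower, summed to 70.8 to 75.5 against 211 to 258 CPM, and erythroid markers, 8 of 8 lower, to 2176 to 3617 against 12800 to 22110 CPM. Markers of visceral and yolk sac endoderm, 3 of 6 tested lower, summed to 37.25 to 106.9 against 68.89 to 1135 CPM. The part of these cell types in the E10.5 values of the members and pathway genes was not tested.

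The makeup of the ligands within each library does not depend on scaling between libraries, and it differed between the genotypes at E10.5. *Jag1* made up 29.4 ± 3.55% of the ligand counts in WT (SD, n = 4) and 75.3 ± 1.64% in Commd10Null embryos (SD, n = 3). *Dll3* made up 44.3 ± 4.41% in WT and 3.02 ± 2.01% in Commd10Null embryos, and *Dll1* 11.9 ± 1.38% and 2.73 ± 0.84%. The ratio of *Dll1* and *Dll3* counts together to *Jag1* counts was 1.51 to 2.41 in the WT and 0.0506 to 0.1 in the Commd10Null libraries. The ligand counts in all were 694 to 780 in WT and 540 to 715 in Commd10Null libraries, which overlapped. At E9.5 the 9 WT libraries kept within 37.3 to 47.1% for *Jag1*, whereas the 3 Commd10Null libraries ranged from 35.9 to 64.6%.

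Among receptor counts, the share of *Notch1* was 29.4 to 37% in the WT and 18.8 to 22.7% in the Commd10Null libraries at E10.5. The ratio of *Notch1* to *Notch2* counts was 0.793 ± 0.086 in WT (SD, n = 9) and 0.416 ± 0.0724 in Commd10Null embryos (SD, n = 3) at E9.5, and 1.01 ± 0.244 (SD, n = 4) and 0.485 ± 0.0718 (SD, n = 3) at E10.5, and the groups did not overlap at either stage. At E8.5 it was 0.598 ± 0.197 in WT (SD, n = 10) and 0.608 ± 0.0427 in Commd10Null embryos (SD, n = 3). These shares and ratios are descriptions without a test. How often such ratios do not overlap between the groups was not computed. Of single genes, 23% at E9.5 and 45.6% at E10.5 had groups that did not overlap.

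**Figure D3:**
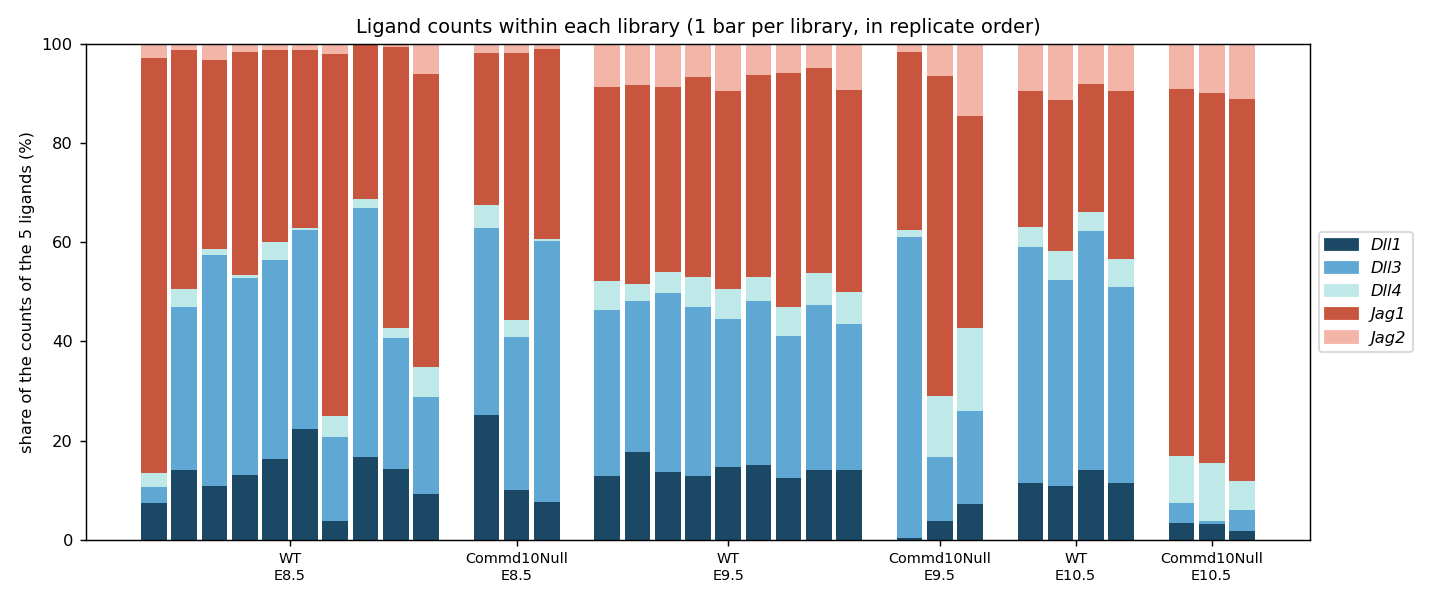
Share of each ligand in the summed counts of the 5 ligands (y axis, percent), with 1 bar per library in replicate order within the 6 groups (x axis). *Jag1* takes 74.1 to 77.2% in the Commd10Null libraries of E10.5 and 25.8 to 33.9% in the WT libraries of that stage, and the Commd10Null libraries of E9.5 differ from one another.

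*Dll1* and *Dll3*, neighbours in function during segmentation, did not fall together in every Commd10Null library. In Commd10Null replicate 1 of E9.5 *Dll3* had 309 counts and *Dll1* had 2, a ratio of 154.5, against ratios of 3.5 and 2.57 in replicates 2 and 3 and of 1.72 to 2.65 in the WT libraries. At E10.5 the ratio was 0.227 to 2.42 in the Commd10Null and 3.43 to 4.2 in the WT libraries, without overlap. Of single genes, 45.6% had groups that did not overlap at E10.5. Over the 32 libraries, which fall into 6 groups and share a platform, the log2 CPM of *Dll1* and *Dll3* had a Pearson r of 0.55, and of 0.186 after the group means were subtracted. *Notch3* and *Jag1* had the highest r among the 36 pairs of members after that subtraction, at 0.703.

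**Figure D4:**
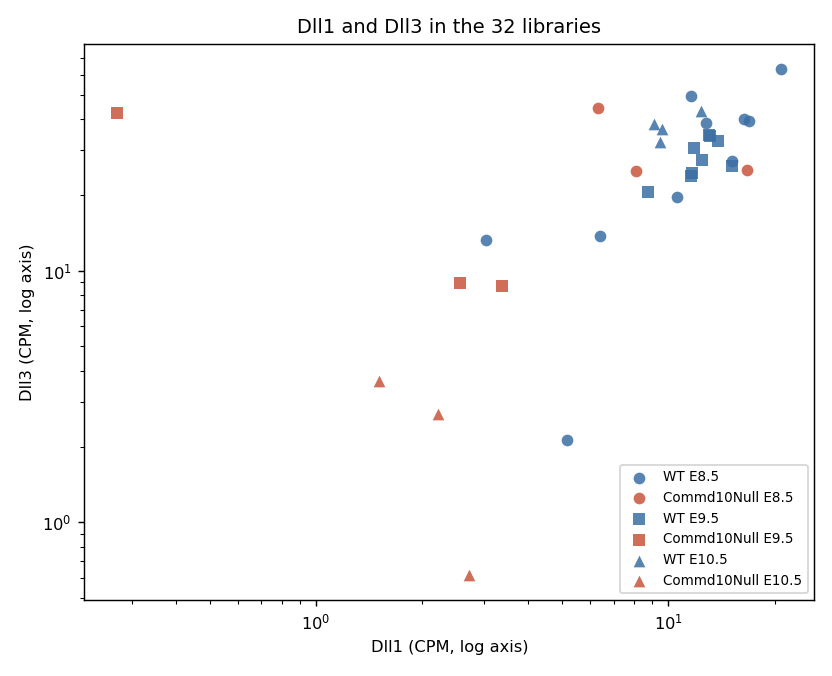
Level of *Dll1* (x axis) and *Dll3* (y axis) in each of the 32 libraries, in CPM on log axes; color gives genotype and marker shape gives stage. The Commd10Null libraries of E10.5 lie at the lower left, and Commd10Null replicate 1 of E9.5 stands at the upper left with 0.274 CPM of *Dll1* and 42.3 CPM of *Dll3*.

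Between E8.5 and E9.5, the members of lowest level rose in WT embryos. *Jag2* was at 0.24 to 4.23 CPM (median 1.53) at E8.5 and at 4.21 to 8.22 CPM (median 7.13) at E9.5, 3.77-fold higher (log2 fold change 1.92, SE 0.33, adjusted p = 3.6e-05). *Notch4* went from 3.08 ± 1.28 (SD, n = 10) to 6.28 ± 1.27 CPM (SD, n = 9; log2 fold change 1.01, adjusted p = 0.000512), and *Dll4* from 2.34 ± 1.45 to 4.73 ± 1.09 CPM (0.98, adjusted p = 0.0153). *Jag1* fell by 0.34 on the log2 scale (adjusted p = 0.0217), a call lost without TMM factors (adjusted p = 0.132) and with all 32 libraries in 1 model (0.0713). The other 5 did not pass. The 4 members that passed stand beside 51.2% of the 12718 genes tested, and for each of the 9 the groups overlapped, whereas for 12.9% of all genes they did not. *Notch1* (0.31, adjusted p = 0.101) passed without TMM factors (0.43, adjusted p = 0.0202) and without WT E8.5 replicate 2 (0.40, adjusted p = 0.0248). Endothelial markers summed to 191 to 289 CPM at E8.5 and 213 to 275 CPM at E9.5, with 5 of 10 higher and 3 lower, and their part in the levels of *Notch4* and *Dll4* was not tested.

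Between E9.5 and E10.5, *Jag1* fell and *Dll3* rose in WT embryos, where 26.4% of the 13355 genes tested passed. *Jag1* was at 31.5 to 40.9 CPM (median 34.3) at E9.5 and at 22 to 27.8 CPM at E10.5, without overlap (log2 fold change -0.51, SE 0.09, adjusted p = 0.000446 from edgeR). Of all genes, 12.8% had groups that did not overlap. *Dll3* went from 28.2 ± 5.03 (SD, n = 9) to 37.5 ± 4.31 CPM (SD, n = 4; 0.41, SE 0.12, adjusted p = 0.0163), with overlap. The call of *Dll3* was lost without WT E10.5 replicate 3 (adjusted p = 0.087) and that of both genes with all 32 libraries in 1 model (0.674 for *Dll3*, 0.102 for *Jag1*). *Notch1* (0.26, adjusted p = 0.0952) passed without TMM factors (0.32, adjusted p = 0.0322), and *Dll1* (-0.29, adjusted p = 0.125) without WT E9.5 replicate 7 (-0.33, adjusted p = 0.049). Neuron markers, 8 of 8 higher, summed to 102.5 to 273.8 CPM at E9.5 and 501.6 to 852.4 CPM at E10.5. Presomitic markers, 6 of 9 tested lower and 0 higher, summed to 68.01 to 112 and 60.12 to 64.13 CPM. Heart muscle markers, 4 of 8 lower and 0 higher, summed to 1273 to 1802 and 1062 to 1623 CPM. The part of cell makeup in the levels of the members was not tested. Both comparisons of WT stages use the WT E9.5 libraries.

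Commd10Null embryos gave no call for a member between stages, with 3 libraries a group. None of the 9 passed between E8.5 and E9.5, where 0 of 12856 genes (0%) passed in edgeR, 661 had an unadjusted p under 0.05 and 60 passed the Wald test of DESeq2. *Notch4* and *Dll1* did not overlap between these stages, nor did 12.1% of all genes. *Notch4* was at 2.04, 1.28 and 1.76 CPM at E8.5 and at 5.33, 6.65 and 2.54 CPM at E9.5 (log2 fold change 1.49, SE 0.61, adjusted p = 0.921). *Dll1* was at 16.7, 8.08 and 6.31 CPM at E8.5 and was below all of these at E9.5, and its change of -2.32 on the log2 scale (SE 0.80, adjusted p = 0.9) passed only with all 32 libraries in 1 model (adjusted p = 0.0149). Between E9.5 and E10.5 none of the 9 passed, where 4 of 12905 genes (0.031%) did, 1409 had an unadjusted p under 0.05 and 355 passed in DESeq2. *Notch3*, *Dll3* and *Jag1* did not overlap between these stages, nor did 19.5% of all genes. *Dll3* lay lower in all 3 libraries of E10.5 than in those of E9.5 (log2 fold change -3.09, SE 0.82, adjusted p = 0.256), and passed in DESeq2 (adjusted p = 0.004), without a filter on low counts (0.0205) and with all 32 libraries in 1 model (0.00744). *Jag1* lay higher in all 3 (1.02, SE 0.32, adjusted p = 0.325), and passed with all 32 libraries in 1 model (0.0114). *Jag1* in WT embryos was lower at E10.5 than at E9.5, and Commd10Null embryos lay the other way.

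The effect of genotype on *Dll1*, *Dll3* and *Jag1* differed between stages in 1 model of all 32 libraries. The effect on *Dll1* was lower by 2.35 on the log2 scale at E9.5 than at E8.5 (SE 0.59, adjusted p = 0.00923 from edgeR), where 11.1% of 15057 genes passed. At E10.5 against E8.5, where 18.5% of genes passed, the difference was -2.03 for *Dll1* (adjusted p = 0.0213), -4.04 for *Dll3* (SE 0.83, adjusted p = 0.000857) and 1.75 for *Jag1* (SE 0.32, adjusted p = 0.000249). At E10.5 against E9.5, where 7.69% passed, it was -3.50 for *Dll3* (SE 0.84, adjusted p = 0.00973) and 1.53 for *Jag1* (SE 0.32, adjusted p = 0.00381). Without Commd10Null E8.5 replicate 1, which had the highest *Dll1* of its group, the differences for *Dll1* no longer passed (adjusted p = 0.0628 and 0.123), and that of E10.5 against E8.5 was also lost without Commd10Null E10.5 replicate 3 (0.0742). Without Commd10Null E9.5 replicate 1, the last difference for *Dll3* was -2.34 (adjusted p = 0.0672).

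Genes that act on ligands and receptors were counted by their role. Among all genes tested, E8.5 had 6.73% higher and 6.86% lower, E9.5 had 20.2% higher and 17.4% lower, and E10.5 had 20.9% higher and 21.4% lower. With lists of 7 to 12 genes, a count is a description that sets no list apart from all genes. The list of EGF repeat glycosylation holds enzymes that decorate the receptors, among them the Fringe genes. *Lfng* is also among the presomitic markers. At E10.5, 3 of its 9 genes fell and 0 rose: *Lfng*, the Fringe gene of the segmentation clock, to 7.03 ± 1.41 from 14.7 ± 1.32 CPM (SD, n = 3 and 4; log2 fold change -1.06, adjusted p = 0.000552), *Mfng* (-1.32, adjusted p = 0.00113) and *Gxylt2* (-1.77, adjusted p = 0.000794). At E9.5, 3 of 9 fell, with *Lfng* (-1.37, adjusted p = 0.00278) and *Mfng* (-1.44, adjusted p = 0.0366) among them, and *Pofut1*, which adds the fucose that Fringe extends, rose (0.39, adjusted p = 0.0155). At E8.5, 1 of 9 fell, *Poglut1* (-0.72, adjusted p = 0.00642), and the median of the list was -0.55 against -0.02 over all genes. The medians at E9.5 and E10.5 were -0.34 and -0.47, against 0.02 and 0.01.

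Ligand endocytosis, receptor proteolysis and the nuclear complex had calls in either direction, in shares that stand beside 13.6% of all genes at E8.5, 37.6% at E9.5 and 42.3% at E10.5. Of the 7 genes of ligand endocytosis, 0 passed at E8.5, 2 rose and 1 fell at E9.5, and 2 rose and 2 fell at E10.5, where *Mib1*, the ubiquitin ligase of the ligands, rose (0.42, adjusted p = 0.00503) and *Mib2* fell (-0.71, adjusted p = 0.014). Of the 9 proteolysis genes tested at E9.5, 3 rose, led by *Furin*, which cleaves the receptor on its way to the surface (1.49, adjusted p = 1.08e-07), and 1 fell, *Psenen*, a subunit of gamma-secretase (-0.92, adjusted p = 0.00323). At E10.5, 4 rose and 3 fell, with *Psen2*, a catalytic subunit of gamma-secretase, higher (0.79, adjusted p = 0.00149), and at E8.5, 1 of 10 rose, *Furin* (0.57, adjusted p = 0.0131). Of the 10 nuclear genes, 2 fell at E8.5, 2 rose and 2 fell at E9.5, and 5 rose and 0 fell at E10.5. *Rbpj* itself fell at E9.5 (-0.44, adjusted p = 0.00848), and *Ep300*, a histone acetyltransferase of the complex, rose at E9.5 (0.67, adjusted p = 0.00323) and E10.5 (0.78, adjusted p = 8.28e-06).

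Targets of the pathway moved apart from one another. At E9.5, 5 of 12 fell and 1 rose, where 37.6% of all genes passed, and the median of the list was -0.60 against 0.02 over all genes. *Hes5*, a target in neural progenitors, was at 4.93 ± 0.881 (SD, n = 3) in Commd10Null and 109 ± 18.4 CPM (SD, n = 9) in WT embryos. Its log2 fold change was -4.42 (SE 0.21, adjusted p = 2.44e-09). At E10.5, 4 of 12 rose and 4 fell, where 42.3% of all genes passed, with a median of -0.29 against 0.01. *Hes5* (-3.63, adjusted p = 3.99e-08), *Heyl* (-5.46, adjusted p = 6.06e-07, with 6 counts in the 3 Commd10Null libraries) and *Nrarp*, a feedback inhibitor (-1.34, adjusted p = 1.94e-06), fell, whereas *Hes1* rose from 140 ± 12.6 (SD, n = 4) to 238 ± 18 CPM (SD, n = 3; 0.77, adjusted p = 7.98e-06). At E8.5, 2 of 11 tested rose, *Myc* (1.22, adjusted p = 0.0169) and *Gata2* (1.20, adjusted p = 0.0375), and 1 fell, *Ccnd1* (-0.76, adjusted p = 0.00338). These 3 are also regulated outside the Notch pathway. *Hes5* did not pass at that stage (-1.75, SE 0.71, adjusted p = 0.109). Neural progenitor markers were lower too, 5 of 9 tested at E8.5, 10 of 10 at E9.5 and 9 of 10 at E10.5. The part of cell makeup in the changes of *Hes5* and the other targets was not tested.

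Of the 11 antagonists and turnover genes tested, 1 rose and 1 fell at E8.5, 1 rose and 4 fell at E9.5, where 20.2% of all genes passed as higher and 17.4% as lower, and 1 rose and 6 fell at E10.5, where 20.9% and 21.4% did. *Dtx4*, of the Deltex family of ubiquitin ligases, was lower at E9.5 (-2.37, adjusted p = 2.03e-05) and E10.5 (-2.01, adjusted p = 9.54e-07), and *Fbxw7*, which targets the receptor's intracellular domain for degradation, at E10.5 (-0.69, adjusted p = 0.00241). *Numb*, an inhibitor of the receptor, was higher at E8.5 (1.39, adjusted p = 0.00933). *Nrarp* stands in this list and in that of the targets and counts in both.

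**Figure D5:**
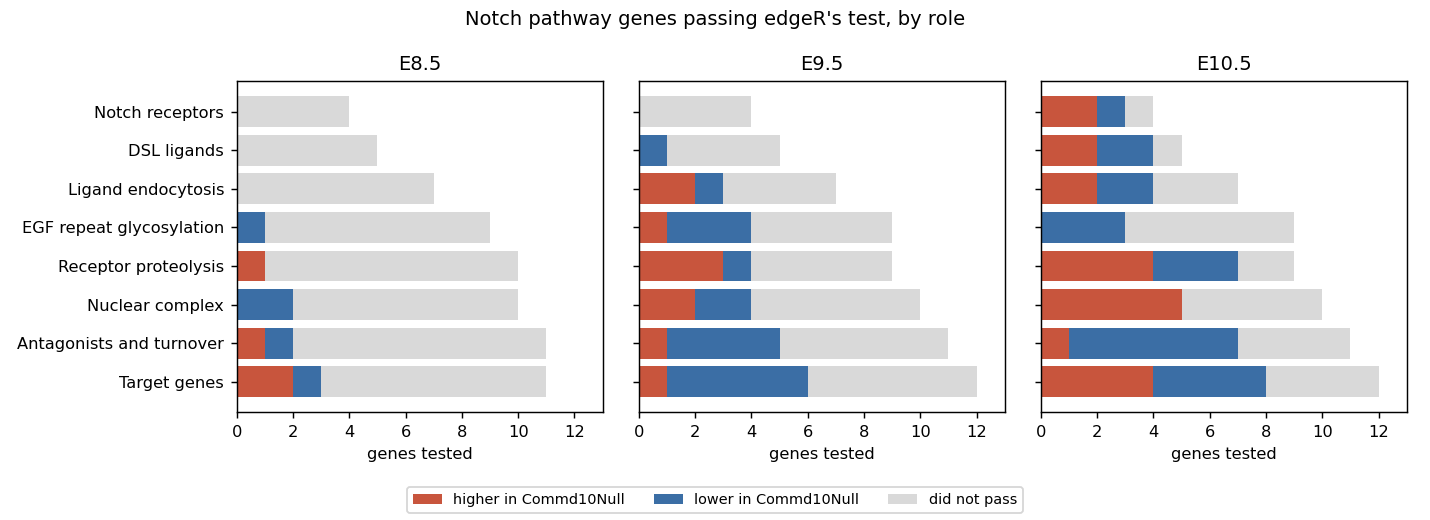
Number of genes tested (x axis) in each list of the pathway (y axis) that were higher (red), lower (blue) or did not pass (gray) in Commd10Null against WT embryos, in a panel for each stage. Receptors and ligands have no call at E8.5, 1 at E9.5 and 7 at E10.5, and the nuclear complex has 5 higher and 0 lower at E10.5.

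The genes whose levels ran most like those of a member were ranked by Pearson correlation of log2 CPM over the 32 libraries, among 14996 genes. The libraries fall into 6 groups and differ in cell makeup, so that these values are a description. *Jag2* had the closest partners, *Plxnd1* (r = 0.926), *Sh2d3c* (0.92) and *Lix1l* (0.913). *Dll4* ran most like *Calcrl* (0.825), *She* (0.814) and *Adgrl4* (0.809), *Notch1* like *Nrarp* (0.79), *Notch2* like *Kdr* (0.744), and *Notch3* like *Dact1* (0.825) and *Ltbp1* (0.821). *Notch4* ran most like *Selenow* (0.83), *Dll1* like *Fundc1* (0.837) and *Fzd10* (0.82), *Dll3* like *Pcdh19* (0.836), and *Jag1* like *Ror2* (0.817) and *Frem2* (0.807). After the group means were subtracted, the closest partners of *Dll3* were *Laptm4b* (0.892), *Evx1os* (0.802) and *Cdx2* (0.786), a gene of the posterior embryo, and those of *Notch1* were *Hoxb9* (0.802) and *Hoxa7* (0.721). The closest to *Notch3* was then *Mboat2* (0.859), to *Jag1* *Crybg3* (0.829), to *Jag2* *Thbs1* (0.852), to *Dll4* *Myzap* (0.827), to *Dll1* *Lmo2* (0.817), to *Notch2* *Mcc* (0.763) and to *Notch4* *Dusp22* (0.759).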

How the data were processed

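The deposited table holds raw counts of reads for 55414 identifiers in 32 libraries, as the authors made it. Per the study's methods, reads were trimmed with BBDuk and pseudo-aligned by STAR to mm10 coding regions, whereas Trimmomatic 0.35 is listed in the processing notes of the submitters. Genes were annotated by the authors through biomaRt. The tool and strand setting of the counting and the release of the annotation are not stated in the paper, labels or table. Identifiers were matched to GENCODE M21 symbols, and 52081 had one. Every column was assigned to a sample through its label.

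Each comparison was fitted on its own libraries with edgeR 4.0.16 (R 4.3.3) by the quasi-likelihood test, after TMM scaling and filterByExpr (10 counts, 15 in total), with Benjamini-Hochberg adjustment over all genes tested. A gene passed if its adjusted p did not exceed 0.05, and every adjusted p comes from edgeR unless DESeq2 is named. SE is the log2 fold change divided by the square root of F. Differences between stages in the effect of genotype come from 1 model of all libraries. CPM levels use TMM over all 32 libraries and 15057 genes, and correlations use log2 CPM with a prior count of 2. The procedure was tested on simulated data.

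Alternatives were the Wald test of DESeq2 1.42.0, RLE factors, no factors, no filter, a stricter filter (50 counts in 3 libraries), the replicate number as a block, 1 model of all 32 libraries, removal of the most abundant identifier, and each library left out in turn. All 9 members are described; each list of the pathway is given by its counts and by up to 4 genes of smallest p, and up to 3 genes of highest Pearson r are named for a member. The members and lists were chosen with earlier results of these data known. No pair of libraries was identical within sampling noise. Figures were drawn with matplotlib 3.10.9 in Python 3.11.15.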

Additional observations from a re-analysis of the deposited data

Results flagged for a closer look

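In 2 of 27 sets of values of a member in a group of 4 to 10 libraries, 1 library stood far from the rest, and chance gives about 1 in 20. *Notch2* was at 63.136 CPM in WT E8.5 replicate 8, against 44.827 CPM in the next library, a gap of 0.665 of the range. *Dll1* was at 12.377 CPM in WT E10.5 replicate 3, against 9.5794 CPM in the next, a gap of 0.85 of the range.

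The effect of genotype differed between stages, by the test of the difference in edgeR, in 6 cases. For *Dll1* it differed by -2.354 on the log2 scale between E9.5 and E8.5 (adjusted p = 0.00923) and by -2.031 between E10.5 and E8.5 (adjusted p = 0.0213). For *Dll3* the difference was -4.036 between E10.5 and E8.5 (adjusted p = 0.000857) and -3.501 between E10.5 and E9.5 (adjusted p = 0.00973). For *Jag1* it was 1.749 (adjusted p = 0.000249) and 1.528 (adjusted p = 0.00381) over the same stages. The comparisons share the libraries of each stage.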

How the results depend on the processing

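No value of a member that changed sign under an alternative passed there, and 63 did change sign. Over all alternatives 22 calls were lost and 18 gained, 11 and 10 of them by leaving out a library. These counts cover every member in the comparisons of genotype and of WT stages. For the Commd10Null stages and the differences of effects they cover only *Dll1*, *Dll3* and *Jag1*. The numbers of members passing cover all members. The number of members passing moved with all 32 libraries in 1 model to 4 for genotype at E10.5, 0 for WT E10.5 against E9.5, and 1 and 2 for the successive Commd10Null stages, and to 1 in DESeq2 and to 1 without a filter for Commd10Null E10.5 against E9.5. The cause was not tested. Genes passing went from 5724 to 3651 for genotype at E10.5 and from 3526 to 1248 for WT E10.5 against E9.5 with all libraries in 1 model. For the Commd10Null stages they went from 0 to 60 (DESeq2), 66 (no filter) and 565 (1 model), and from 4 to 355, 288 and 1554, and to 22 with the block and to 1 without factors or without the most abundant identifier.

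Replicate numbers did not pair the libraries: same-numbered deviations had r of -0.0657 to 0.111 between genotypes. With the replicate number as a block, genes passing at E9.5 went from 5068 to 610, members passing were 1 at E8.5 (*Jag1*, -0.75, adjusted p = 0.045) and 1 for WT E10.5 against E9.5 (*Dll3* lost, adjusted p = 0.104), and *Dll4* was lost at E10.5 (adjusted p = 0.0645). In the Commd10Null comparison of E10.5 with E9.5 every library correlated best with its own number, but r was only 0.0145 to 0.0381. Between Commd10Null E9.5 and E8.5 the same-numbered r was -0.12, 0.156 and -0.0894 for replicates 1, 2 and 3. These values do not show a pairing, and the sources name none.

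Small values changed sign as follows. At E8.5 *Dll3* was -0.0073 without factors, *Notch1* 0.0099 with the stricter filter and *Notch2* 0.030 with the block. At E10.5 *Jag2* was -0.0103 in DESeq2, -0.0103 with RLE factors, -0.14 without factors, -0.0202 without a filter, -0.0201 with the stricter filter, -0.0056 with all libraries, -0.026 with the block and -0.012 without the most abundant identifier. Between WT E8.5 and E9.5 *Notch2* was 0.0075 without factors and *Dll3* 0.0032 with the block. Between WT E9.5 and E10.5 *Notch3* was 0.0021 in DESeq2, 0.00202 with RLE factors, 0.058 without factors, 0.032 with the stricter filter, 0.016 with the block and 0.0013 without the most abundant identifier, and *Notch2* was 0.021 without factors.

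With each library left out in turn, members passing ranged from 1 to 5 for genotype at E9.5, from 1 to 3 for WT E10.5 against E9.5, from 0 to 2 for the difference of effects between E9.5 and E8.5, and from 1 to 2 between E10.5 and E9.5. Genes passing at E8.5, 1876 with every library, were 390 without Commd10Null replicate 1 and 989 without replicate 3. For the Commd10Null stages, they were up to 276, without E9.5 replicate 3, against 0 for E9.5 against E8.5, and 0 to 37 against 4 for E10.5 against E9.5. Differences of effects between E9.5 and E8.5 passed in 1677 genes and in 1090 without Commd10Null E8.5 replicate 3. Between E10.5 and E9.5 they passed in 1158 genes, in 1955 without Commd10Null E9.5 replicate 2, in 575 without WT E10.5 replicate 1, and in 676 and 600 without Commd10Null E10.5 replicates 1 and 3. The log2 fold changes that changed sign ranged at E8.5 from -0.73 to 0.039 (*Dll1*), -0.32 to 0.21 (*Dll3*), -0.65 to 0.29 (*Dll4*), -0.16 to 0.10 (*Notch1*) and -0.21 to 0.015 (*Notch2*). They ranged at E9.5 from -0.053 to 0.81 (*Dll4*), -0.63 to 0.0016 (*Jag1*) and -0.57 to 0.049 (*Notch3*), and at E10.5 from -0.13 to 0.17 (*Jag2*) and -1.05 to 0.0093 (*Notch4*). Between WT E8.5 and E9.5 they ranged from -0.080 to 0.17 (*Dll1*) and -0.28 to 0.042 (*Dll3*), and between WT E9.5 and E10.5 from -0.14 to 0.034 (*Notch2*) and -0.032 to 0.021 (*Notch3*). For the Commd10Null stages and the differences of effects, sign changes were followed for *Dll1*, *Dll3* and *Jag1* only. For Commd10Null the values ranged from -0.53 to 0.20 (*Jag1*, E9.5 against E8.5) and -0.45 to 0.59 (*Dll1*, E10.5 against E9.5). Differences of effects ranged from -0.19 to 0.87 (*Dll1*, E10.5 against E9.5) and -0.19 to 0.50 (*Jag1*, E9.5 against E8.5). Counts under 60 over a group, as for *Dll1* and *Dll3* in Commd10Null embryos of E10.5, limit the precision of a fold change.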
